A study of Mus musculus with 8 samples.

Results

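Deletion of Setdb1 in pro-B cells taken straight from mouse bone marrow was examined in 4 of the 8 samples of the study. The samples were chosen by their titles, and each was hybridised to 1 Affymetrix array. The labels give 2 samples of control cells (Setdb1 C/C, floxed and not deleted) and 2 of deleted cells (Setdb1 Δ/Δ), all 4 without a Bcl2 transgene. The other 4 samples carried a bcl-2 transgene, came as 2 Setdb1 C/C and 2 Setdb1 Δ/Δ samples, and were kept in interleukin-7 (IL-7) at 5 ng per µl for 4 days. They entered the same model, which estimates 1 spread for all groups, and give a second deletion comparison with its own controls. All cells were described as pro-B cells purified by sorting, and their RNA was amplified before labelling. The Cre driver, the strain, the age of the mice and the number of animals per sample are not given in the sources used here. A growth protocol repeated for every sample describes the IL-7 step also for the marrow samples, while the design text places those directly from the marrow.

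Pro-B cells are early precursors in which, with IL-7 as growth factor, the immunoglobulin heavy chain is assembled. They already carry part of the machinery for presenting antigen to T cells on MHC class II molecules, and genes of receptor signalling rise further as the cells become pre-B and mature B cells. Setdb1 is an enzyme that methylates lysine 9 of histone H3 and, recruited by Trim28 and zinc finger proteins, holds retroviral elements and some genes silent.

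Genes were read as log2 values, so a change of 1 is a doubling. In all, 16050 named genes were tested with limma and called at an adjusted p under 0.05. Of these, 6 rose (0.0374% of genes tested) and 15 fell (0.0935%) in deleted marrow cells. The 2 deleted arrays lay close together (r = 0.988 across genes, 74 genes apart by more than 1), and the 2 controls did not (r = 0.945, 744 genes). Control 1 stood apart from the other marrow arrays on the first principal component, at -49.6 against 0.91 for control 2 and 22.5 and 26.2 for the deleted arrays. This component held 62.7% of the variance. The number of calls rested on the arrays used. In limma it was 0 without either deleted array (870 genes at an unadjusted p under 0.05 without the second, 1136 without the first), 54 without control 1, 570 without control 2, 16 without either culture control and 6 without either deleted culture. All 21 genes kept their direction under each of the 18 alternatives, but many lost their call. Of the 21, 0 still passed with only the 4 marrow arrays in the fit or without either deleted array, 3 without either deleted culture, 6 with the mean of myeloid markers as a covariate (Scd1, Cd74, H2-Aa, Cd55, Clgn and Akap5) and 11 without either culture control. Without control 1 18 still passed, and Aim1, Egfl6 and Nlrc3 did not (adjusted p = 0.0603, 0.0801 and 0.0809).

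Genes that define pro-B cells were read in the sorted cells. All of 12 pro-B genes that were looked up, among them Pax5, Ebf1, Vpreb1, Igll1 and Il7r, lay above the value set for dim genes (4.03) in all 4 arrays. So did all 22 neutrophil granule markers, so passing this value does not tell cell types apart. Pax5, the factor that commits cells to the B lineage, read 9.79 and 9.94 in controls and 9.82 and 9.93 in deleted cells. Cd79a read lower in both deleted arrays (9.90 and 9.98) than in both controls (10.46 and 10.83). Igll1 was slightly higher in control 1 than in control 2 (11.35 and 11.26). Most of the other markers were lowest in control 1. Dntt, which adds bases at recombination joints, read 8.52 and 10.03 in controls and 10.85 and 10.89 in deleted cells. The recombinase gene Rag1 read 8.27 and 9.999 against 9.74 and 9.17, and the receptor gene Kit 5.63 and 6.57 against 7.02 and 7.23. The mean of the 12 genes was 9.23 in control 1, 9.89 in control 2, and 10.10 and 9.99 in the deleted arrays. Setdb1 itself was read at 7.02 and 6.67 in controls and 6.74 and 6.53 in deleted cells, which overlap. The change was -0.21 (SE 0.21, adjusted p = 0.768). Which exons the deletion removes is not given in the sources used here, so no probeset could be tied to the deleted part. Of its 23 probesets 7 were lower and 2 higher in both deleted arrays, 14 overlapped, and their changes ran from -1.40 to 0.78.

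**Figure D1:**
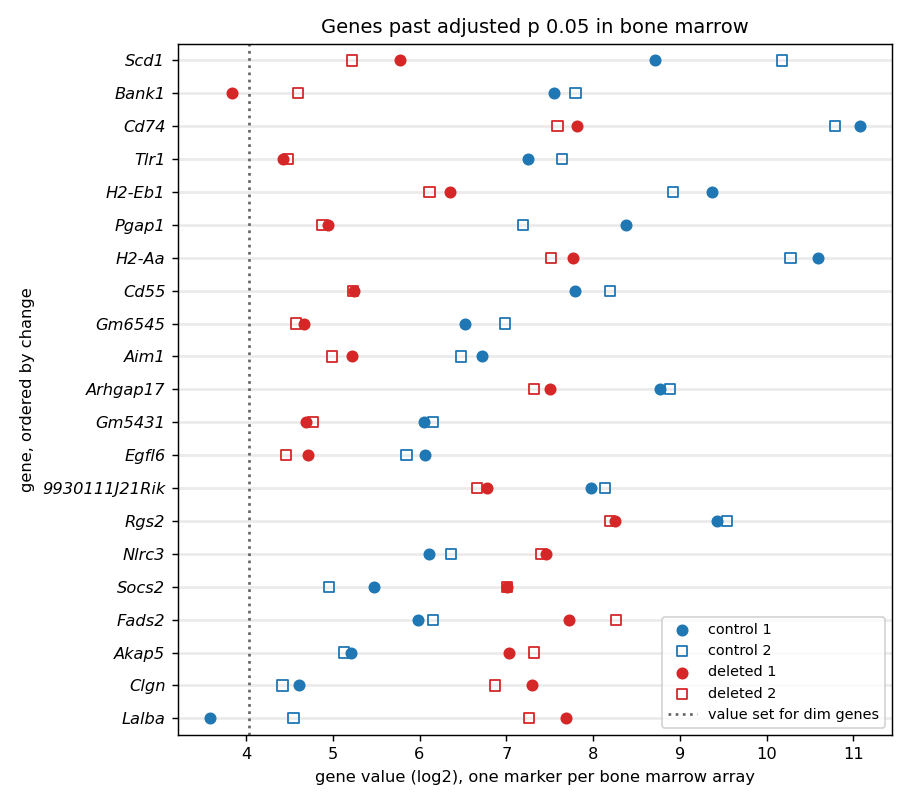
Log2 value (x axis) of the 21 genes past adjusted p 0.05 in each of the 4 bone marrow arrays, with genes ordered by change and 1 marker per array. Blue marks controls and red marks deleted cells. In each of the 21 genes both deleted arrays lie on one side of both controls, and Bank1 in deleted array 1 (3.84) and Lalba in control 1 (3.59) lie under the dotted line at the value for dim genes.

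A group of falls was in MHC class II presentation. Promoters of class II genes share short boxes that are read by the RFX complex and by NF-Y and brought to activity by Ciita. The stretches below, upstream of 4 class II genes of mouse chromosome 17, are shown because these genes read lower together in the deleted cells. Sequences are from RefSeq (GRCm38.p6), 125 bases up to the annotated start, 5′ to 3′ on the strand of the gene, with matches in capitals.
H2-Aa, chr17:34287824-34287948, minus strand: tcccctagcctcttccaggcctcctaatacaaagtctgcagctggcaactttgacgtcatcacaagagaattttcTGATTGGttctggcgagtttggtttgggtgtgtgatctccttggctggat
H2-Eb1, chr17:34305742-34305866, plus strand: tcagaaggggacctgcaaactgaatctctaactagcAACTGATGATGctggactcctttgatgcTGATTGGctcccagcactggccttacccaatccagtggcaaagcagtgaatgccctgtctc
H2-DMb1, chr17:34153066-34153190, plus strand: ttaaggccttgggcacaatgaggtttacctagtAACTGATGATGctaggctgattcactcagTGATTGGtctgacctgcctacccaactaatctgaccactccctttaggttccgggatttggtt
H2-DMb2, chr17:34145124-34145248, plus strand: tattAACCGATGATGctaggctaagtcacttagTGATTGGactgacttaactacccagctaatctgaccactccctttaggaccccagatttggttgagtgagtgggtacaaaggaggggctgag

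The capitals mark TGATTGG, the core of the Y box, and a longer match upstream of it in 3 of the genes, a form of the X box, searched on both strands without overlap between them. The letters were chosen after the sequences were seen. In windows of 300 bases the Y box letters occur in 7.82% of 32851 promoters, the X box letters in 0.0609% and both in 0.0213%. Of the 15 genes on the class II list 11 had a promoter in the table, 8 of them with the Y box letters and 3 with both. The Y box letters were also in H2-Oa, H2-Ob and Rfx5, whose changes were -0.12, -0.37 and -0.05. Ctss, H2-DMa and Rfxank had an entry without either match, and their changes were -1.56, -0.96 and -0.20. Cd74, Ciita, H2-Ab1 and Rfxap had no entry. A match describes the letters and is not a measured binding site.

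Cd74, the invariant chain that guides class II molecules through the cell, read 11.08 and 10.79 in controls and 7.81 and 7.59 in deleted cells. The controls were thus far above both deleted arrays, and Cd74 fell by 3.23 (SE 0.20, 9.40-fold, adjusted p = 0.00368). H2-Aa, an alpha chain, read 10.59 and 10.27 in controls against 7.77 and 7.51. It fell by 2.79 (SE 0.20, adjusted p = 0.00726). H2-Eb1, a beta chain, read 9.37 and 8.92 against 6.35 and 6.11 and fell by 2.91 (SE 0.30, adjusted p = 0.023). All 12 probesets of Cd74, all 5 of H2-Aa and all 7 of H2-Eb1 separated the groups, with each deleted array the lower.

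Of the 15 class II genes, all tested, 3 fell and 0 rose in limma, and 9 lay lower at an unadjusted p under 0.05 (5.2% of all genes tested). In 10 both deleted arrays lay below both controls (17.6% of all genes tested) and in 1, Rfxap, above. The median change was -1.55, against 0.04 over all genes tested. It was -1.33 without control 1 and -0.95 without control 2. H2-DMb1, a chain of the molecule that loads peptide, read 8.68 and 8.12 in controls and 6.62 and 6.35 in deleted cells, a change of -1.92 (SE 0.26, adjusted p = 0.0637) from 1 probeset. The remaining members are given to complete the list. H2-Ab1 read 10.53 and 9.88 against 8.11 and 8.22 (change -2.04, SE 0.35, adjusted p = 0.0959). Ciita, the master regulator of the group, read 6.60 and 7.06 against 4.97 and 5.53. Both deleted arrays lay below the controls, and the change was -1.58 (SE 0.31, adjusted p = 0.127). The protease Ctss, which trims the invariant chain, read -1.56 (SE 0.23, adjusted p = 0.0715). H2-Eb2, another beta chain gene, read 5.90 and 5.83 against 4.996 and 5.28 (change -0.73, SE 0.32, adjusted p = 0.434). H2-DMa read -0.96 and H2-DMb2 -1.55, the latter with controls at 6.02 and 7.86. The chains of the inhibitor of loading, H2-Oa (-0.12) and H2-Ob (-0.37), and the X box factor genes Rfx5 (-0.05), Rfxank (-0.20) and Rfxap (0.16) had changes that did not pass (adjusted p from 0.731 to 0.954).

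**Figure D2:**
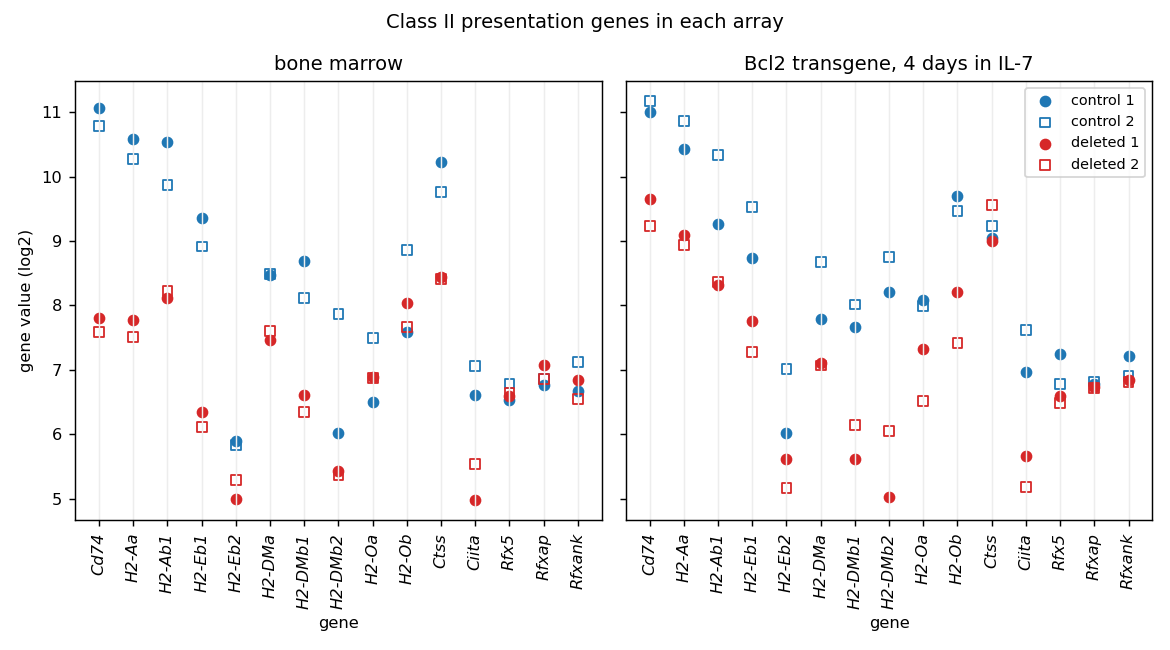
Log2 value of the 15 class II presentation genes in each array, bone marrow on the left and culture on the right, with controls in blue and deleted cells in red. Cd74 in marrow lies at 11.08 and 10.79 in controls and at 7.81 and 7.59 in deleted cells, while Rfx5 and Rfxank overlap between the groups.

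Class II genes are also expressed by macrophages, whose markers moved in the same arrays. Of 23 tested monocyte and macrophage markers, 0 passed in limma and 13 lay lower at an unadjusted p under 0.05 (5.2% of all genes tested). Their median change was -2.45, and it was -0.65 without control 1 and -3.50 without control 2. The mean level of this list was 9.69 in control 1, 7.05 in control 2, and 6.42 and 6.21 in the deleted arrays, over 24 markers on the array. Csf1r, the receptor for macrophage colony stimulating factor, read 10.18 and 7.86 in controls and 6.95 and 6.69 in deleted cells, a gene chosen after its values were seen. Control 1 was also the higher control in Cd74, H2-Aa and H2-Eb1, by 0.28, 0.32 and 0.45. The class II list as a whole did not share this order. Its median of control 2 minus control 1 was 0.01, and its mean level was 8.10 in control 1 and 8.27 in control 2. Ciita and H2-DMb2 were higher in control 2. Among the monocyte markers the controls lay close in Cybb (9.94 and 10.15) and apart in Fcgr1 (8.93 and 6.83). Whether macrophages had a part in the class II changes was not tested. Without control 1 the change of Cd74 was -3.09, that of H2-Aa -2.63 and that of H2-Eb1 -2.68 (limma adjusted p = 0.00682, 0.0105 and 0.038). The myeloid covariate was the mean of the monocyte, macrophage and neutrophil granule markers in each of the 8 arrays. It is therefore not a measure of macrophages alone. The neutrophil markers had means of 8.53 and 8.96 in controls and 8.76 and 8.51 in deleted cells. With this covariate the changes of Cd74, H2-Aa and H2-Eb1 were -3.24, -2.65 and -2.73. That of H2-Eb1 no longer passed in limma (adjusted p = 0.0164, 0.0289 and 0.0588 in the same order). In these bulk samples fewer cells of a type and less RNA per cell cannot be told apart. MHC class I presentation, the route shared by nearly all cells, had 0 of 15 members past in limma (2 higher at an unadjusted p under 0.05, against 6.64% of all genes tested) and a median change of 0.14.

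Genes of later B-cell stages formed a second group of low readings. Of 44 tested genes of surface and signalling proteins, 2 fell, 0 rose and 26 lay lower at an unadjusted p under 0.05 (5.2% of all genes tested). In 29 both deleted arrays lay below both controls (17.6% of all genes tested) and in 3 above (27.3%). The median change was -0.97, -1.26 without control 1 and -0.50 without control 2. The controls differed here, with control 2 above control 1 by a median of 0.70.

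Cd55, which protects cells from complement, read 7.80 and 8.20 in controls and 5.24 and 5.23 in deleted cells. It fell by 2.76 (SE 0.17, adjusted p = 0.00368), and 10 of its 11 probesets separated the groups. Bank1, a scaffold for signalling from the B-cell receptor, read 7.55 and 7.80 against 3.84 and 4.60 and fell by 3.45 (SE 0.30, adjusted p = 0.0181). All 19 probesets of Bank1 lay lower in both deleted arrays, from -5.27 to -0.82. Deleted array 1 lay under the value for dim genes, so the size of the fall is uncertain. Cd22, an inhibitory co-receptor, just missed the threshold, with 8.25 and 8.50 in controls and 6.18 and 6.31 in deleted cells (change -2.13, SE 0.27, adjusted p = 0.0521). The Src family kinase gene Blk read 8.08 and 8.44 against 6.59 and 6.57 (change -1.67, SE 0.23, adjusted p = 0.0673).

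The next genes were picked after seeing their values, because they show where the controls disagree. Ms4a1, which encodes CD20, read 7.09 and 9.69 in controls and 3.46 and 3.78 in deleted cells (change -4.77, SE 0.73, adjusted p = 0.0716). Both deleted arrays of Ms4a1 were dim (under 4.03), which leaves its change without a firm size. Faim3, an Fc receptor for immunoglobulin M, read 6.54 and 8.95 against 4.86 and 4.92 (change -2.86, SE 0.65, adjusted p = 0.163). In both genes control 1 lay between control 2 and the deleted arrays. Fcrl1 (7.37 and 7.95 against 5.16 and 4.86) and Cd72 (9.83 and 10.08 against 8.54 and 8.16) had closer controls, with adjusted p = 0.0715 and 0.0866.

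Of 41 tested transcription factors of the B lineage 0 passed in limma. At an unadjusted p under 0.05 there were 2 higher (6.64% of all genes tested) and 7 lower (5.2%). The median change was 0.05, -0.10 without control 1, 0.08 without control 2 and -0.15 with the myeloid covariate. The lowest p belonged to Ikzf3, which encodes Aiolos, a factor that rises toward the pre-B stage. It read 7.79 and 8.77 in controls and 5.37 and 5.21 in deleted cells, a change of -2.99 (SE 0.42, adjusted p = 0.0673), and 9 of its 10 probesets separated the groups. Pou2f2, which encodes the octamer factor Oct-2, read 7.07 and 7.21 against 6.28 and 6.25 (change -0.87, SE 0.14, adjusted p = 0.0815). Both groups were tight in Pou2f2. Zfp318 (change -1.54, adjusted p = 0.136) and Bcl6 (-1.44, adjusted p = 0.136) had controls apart by 0.80 and 0.64.

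The pre-B receptor and recombination genes had 0 of 23 past in limma. At an unadjusted p under 0.05 there were 5 higher (6.64% of all genes tested) and 3 lower (5.2%). The median was 0.19, or 0.0965 without control 1. Vpreb2, a part of the surrogate light chain, read 9.05 and 9.42 in controls and 10.61 and 10.46 in deleted cells (change 1.30, SE 0.19, adjusted p = 0.0715). Igll1, its partner, read 11.35 and 11.26 against 12.16 and 12.01 (change 0.78, SE 0.23, adjusted p = 0.264). Both genes were above both controls in both deleted arrays. Dclre1c, which encodes Artemis, the nuclease that opens recombination hairpins, read 7.68 and 7.35 against 6.79 and 6.65 (change -0.80, adjusted p = 0.178). Xrcc6, the Ku70 gene of end joining, read 0.69 (adjusted p = 0.304).

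Among 26 tested genes of the pro-B surface and of progenitors, 0 passed in limma. At an unadjusted p under 0.05 there were 9 higher (6.64% of all genes tested) and 4 lower (5.2%). The median was 0.21. It was 0.0834 without control 1 and 0.33 without control 2. Ptprc, which encodes CD45, read 10.34 and 10.35 in controls and 9.36 and 9.30 in deleted cells (change -1.01, SE 0.14, adjusted p = 0.0673). The stem cell marker Cd34 read 4.57 and 5.06 against 6.50 and 5.85 (change 1.36, SE 0.25, adjusted p = 0.112). Erg, a factor of stem cells and early B precursors, read 7.72 and 8.49 against 9.45 and 9.44 (change 1.33, SE 0.26, adjusted p = 0.136). Egfl7 read 0.89 (SE 0.21, adjusted p = 0.171). In Cd34, Erg and Egfl7 control 2 lay nearer to the deleted arrays than control 1 did.

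**Figure D3:**
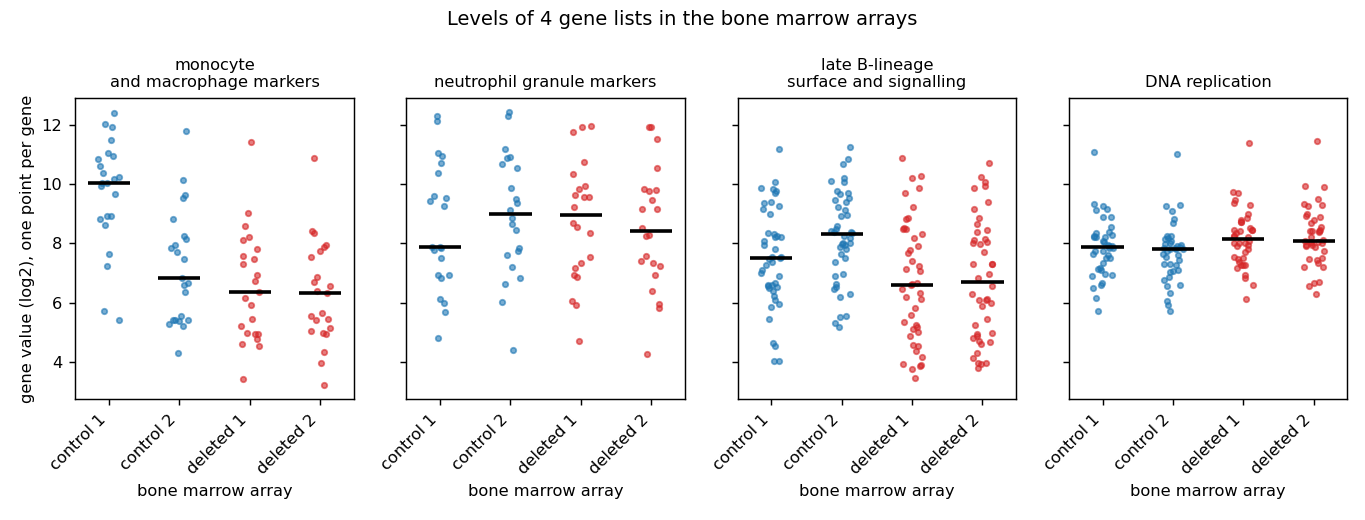
Log2 value of each tested gene (1 point per gene, black bar at the median) of 4 lists in the 4 bone marrow arrays, controls in blue and deleted cells in red. Monocyte and macrophage markers are highest in control 1, with a median of 10.04 against 6.83 in control 2, while DNA replication genes are close in the controls, at 7.88 and 7.80, and higher in the deleted arrays, at 8.16 and 8.10.

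Of 34 tested innate receptor genes Tlr1 fell, Nlrc3 rose, and 17 lay lower at an unadjusted p under 0.05 (5.2% of all genes tested). In 22 both deleted arrays lay below both controls (17.6% of all genes tested). The median was -0.83 and was -0.46 without control 1. Tlr1, which pairs with Tlr2 to sense bacterial lipopeptides, read 7.25 and 7.64 in controls and 4.42 and 4.48 in deleted cells. It fell by 2.99 (SE 0.33, adjusted p = 0.0321), with control 2 above control 1. Nlrc3, a NOD-like receptor that restrains T-cell and innate signalling, read 6.11 and 6.36 against 7.45 and 7.41. It rose by 1.19 (SE 0.15, adjusted p = 0.0454), and 17 of its 19 probesets separated the groups.

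The inflammasome gene Nlrc4 read 5.57 and 5.55 in controls and 3.98 and 4.04 in deleted cells (change -1.55, SE 0.20, adjusted p = 0.0521). Its partner Naip2 read 6.98 and 6.68 against 5.75 and 5.56 (change -1.17, SE 0.17, adjusted p = 0.0715). Both genes had tight groups. Tlr8, chosen after its values were seen, had controls far apart, with 7.33 and 5.12 in controls and 3.73 and 3.94 in deleted cells (adjusted p = 0.198). Both deleted arrays of Tlr8 lay under the value for dim genes.

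A pair of interferon-inducible GTPase genes fell in marrow. RefSeq gives them names of the IRG family, whose members act on the vacuoles of intracellular microbes. Gm5431 read 6.06 and 6.15 in controls and 4.69 and 4.78 in deleted cells and fell by 1.37 (SE 0.13, adjusted p = 0.023), over 2 probesets. The symbol 9930111J21Rik, which RefSeq lists as a synonym of 2 neighbouring genes, read 7.98 and 8.14 against 6.78 and 6.67 and fell by 1.34 (SE 0.14, adjusted p = 0.023). Members of this family are similar in sequence, so signal may be shared between copies. In the order of tested genes Gm5431 lies between Irgm1 and Ifi47, both members of the same family, which read 0.16 (SE 0.21) and 0.19 (SE 0.28) and did not pass (adjusted p = 0.823 and 0.849). Of the 42 tested genes of the interferon response 0 passed in limma. At an unadjusted p under 0.05 there was 1 higher (6.64% of all genes tested) and 11 lower (5.2%). The median was -0.43, or -0.24 without control 1. Gbp6, a guanylate binding protein gene, read 6.49 and 6.10 against 7.19 and 7.62 (change 1.11, SE 0.21, adjusted p = 0.116). Oas1g read 7.74 and 7.41 against 5.92 and 6.52 (change -1.35, SE 0.25, adjusted p = 0.117), and Stat2 read -0.61 and Oas2 -1.41 (adjusted p = 0.184 and 0.239).

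Enzymes that place double bonds in fatty acids changed in opposite directions. Fads2, which makes the first double bond of polyunsaturated fatty acids, read 5.98 and 6.15 in controls and 7.72 and 8.27 in deleted cells. It rose by 1.92 (SE 0.20, adjusted p = 0.023), in 13 of 13 probesets. Scd1, which makes monounsaturated fatty acids, read 8.71 and 10.18 against 5.77 and 5.22. It fell by 3.95 (SE 0.46, adjusted p = 0.0345), the controls lay 1.46 apart, and the change ran from -4.68 without control 1 to -3.22 without control 2. Scd2, chosen after its values were seen, read 7.12 and 7.71 against 7.64 and 8.24, which overlap. Of 23 tested genes of fatty acid synthesis, 1 rose and 1 fell. At an unadjusted p under 0.05 there were 4 higher (6.64% of all genes tested) and 3 lower (5.2%). The median was 0.29, or 0.18 without control 2. Elovl6, which lengthens fatty acid chains, read 7.81 and 7.81 against 8.97 and 9.01 (change 1.18, SE 0.18, adjusted p = 0.0715), and Fasn read 0.62 (adjusted p = 0.242). Cholesterol synthesis had 0 of 20 past in limma and 9 higher at an unadjusted p under 0.05 (6.64% of all genes tested). Its median was 0.26, or 0.40 without control 1. Fdps read 5.30 and 5.51 against 6.27 and 6.28 (change 0.87, adjusted p = 0.0815), and Hmgcs1 5.66 and 5.72 against 6.47 and 6.66 (change 0.87, adjusted p = 0.121).

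The remaining rises were in genes of varied function. Lalba, the milk protein alpha-lactalbumin, read 3.59 and 4.55 in controls and 7.69 and 7.26 in deleted cells. It rose by 3.41 (SE 0.32, adjusted p = 0.023), and all 4 of its probesets separated the groups, by 2.06 to 4.81. Since control 1 was dim the size is uncertain. Clgn, a chaperone best known from testis, read 4.61 and 4.42 against 7.29 and 6.87 and rose by 2.56 (SE 0.27, adjusted p = 0.023), in 14 of 17 probesets. Akap5, which anchors protein kinase A and calcineurin at the membrane, read 5.22 and 5.13 against 7.03 and 7.32 and rose by 2.005 (SE 0.18, adjusted p = 0.0181). Controls were tight in Akap5 and Clgn. Of 24 tested genes of calcineurin and anchoring Akap5 alone passed, and the median was 0.04.

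Socs2, a feedback inhibitor induced by STAT5, read 5.47 and 4.95 in controls and 7.003 and 7.01 in deleted cells and rose by 1.79 (SE 0.22, adjusted p = 0.045). It was the only one of 24 tested IL-7 and STAT5 pathway genes that passed, and the median of these was 0.21, or 0.13 without control 1. Cish, another STAT5 target, read 4.58 and 4.80 against 6.09 and 5.57 (change 1.14, SE 0.22, adjusted p = 0.126). Mcl1 (-0.46) and the receptor chain Il2rg (-0.48) had adjusted p = 0.341 and 0.38.

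The other falls were in single genes. Pgap1, which remodels the lipid anchors of surface proteins, read 8.38 and 7.19 in controls and 4.95 and 4.88 in deleted cells and fell by 2.87 (SE 0.34, adjusted p = 0.0395), in 27 of 28 probesets. Here control 1 was the higher control. Rgs2, which shortens signalling by G proteins, read 9.43 and 9.55 against 8.25 and 8.19 and fell by 1.27 (SE 0.14, adjusted p = 0.0312). Arhgap17 read 8.77 and 8.89 against 7.51 and 7.32 and fell by 1.41 (SE 0.16, adjusted p = 0.0324). Both groups were tight in Rgs2 and Arhgap17. The secreted protein gene Egfl6 read 6.06 and 5.85 against 4.71 and 4.46 and fell by 1.37 (SE 0.17, adjusted p = 0.045). The gene with the array symbol Aim1, a name that RefSeq lists for several genes, read 6.72 and 6.48 against 5.22 and 4.99 and fell by 1.49 (SE 0.17, adjusted p = 0.0324). Gm6545, annotated as a pseudogene and read by 1 probeset, fell by 2.13 (SE 0.21, adjusted p = 0.023), from 6.52 and 6.99 to 4.67 and 4.58.

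Just outside the threshold lay the 10 genes with the next lowest p (adjusted p from 0.0521 to 0.0673), which include Cd22, Nlrc4, H2-DMb1, Ikzf3 and Blk. The others were the transcription co-regulator gene Trim24, 2810474O19Rik, Hdac9, Lmbrd1 and Bfsp2. 2810474O19Rik, now called Resf1 and known to act with Setdb1 in silencing retroelements, read 7.35 and 7.52 in controls and 9.30 and 8.81 in deleted cells (change 1.62, SE 0.21, adjusted p = 0.0521), in 6 of 6 probesets. Trim24 read 7.03 and 7.45 against 9.12 and 8.65 (change 1.64, SE 0.21, adjusted p = 0.0521). In both genes the deleted arrays lay above both controls. The histone deacetylase gene Hdac9 read 8.16 and 7.93 against 6.16 and 6.29 (change -1.82, adjusted p = 0.0521), and Lmbrd1, of vitamin B12 transport, 7.21 and 7.05 against 6.003 and 6.02 (change -1.12, adjusted p = 0.0587). Bfsp2, an intermediate filament gene of the eye lens, read 6.01 and 6.23 against 7.41 and 7.54 (change 1.35, adjusted p = 0.062).

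Heterochromatin machinery had 0 of 36 members past in limma and 13 higher at an unadjusted p under 0.05 (6.64% of all genes tested), with 0 lower. In 21 both deleted arrays lay above both controls (27.3% of all genes tested), and the median was 0.19. After Resf1 the lowest p was that of Trim28, the scaffold that recruits Setdb1, at 8.28 and 8.29 in controls and 8.84 and 8.88 in deleted cells (change 0.58, SE 0.14, adjusted p = 0.189). Uhrf1, which guides maintenance of DNA methylation, read 0.67 and the histone chaperone subunit Chaf1a 0.58 (adjusted p = 0.197 and 0.254). Genes that heterochromatin silences in many cells were mostly too dim to test. Of 42 germline genes listed, 40 were on the array and 15 were tested, of which Clgn rose. Stag3, a cohesin subunit of meiosis, read 4.78 and 6.28 in controls and 7.88 and 7.87 in deleted cells (change 2.35, SE 0.42, adjusted p = 0.111), with control 1 the lower control. Tdrd9 read 0.53 and Tex101 0.41, and the median of the 15 was 0.26, or 0.0875 without control 1. Of 20 tested imprinted genes 0 passed in limma, also 0 at an unadjusted p under 0.05 (11.8% of all genes tested). The median was 0.02, and Grb10 at 0.31 had the lowest p. Retrovirus receptors and restriction factors had 0 of 19 past (3 higher and 2 lower unadjusted, against 6.64% and 5.2% of all genes tested). Their median was 0.05. Samhd1, which depletes the nucleotides of reverse transcription, read 9.57 and 10.09 against 8.38 and 8.15 (change -1.56, SE 0.23, adjusted p = 0.0715). Slc7a1, the receptor of ecotropic retroviruses, read 0.60 (adjusted p = 0.219), and the nuclease gene Trex1 -0.40 (adjusted p = 0.378).

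**Figure D4:**
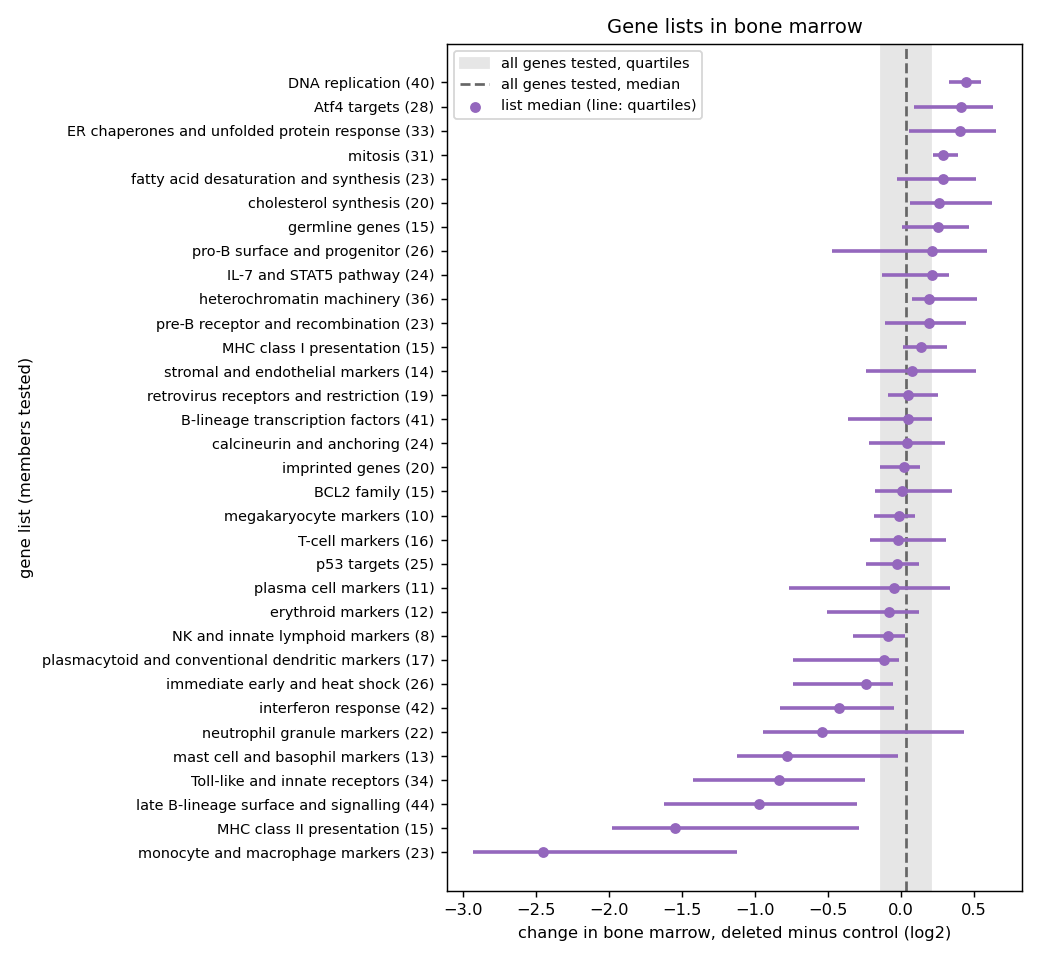
Change in bone marrow (log2, deleted minus control) of 33 gene lists, as the median of the tested members with a line from the lower to the upper quartile, beside the quartiles and the median (0.04) of all 16050 genes tested. Monocyte and macrophage markers (-2.45, but -0.65 without control 1, above class II at -1.33 and later B-cell genes at -1.26) and class II presentation (-1.55) lie lowest, and DNA replication (0.44) lies highest.

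Among lists of growth and of the endoplasmic reticulum Clgn was the only gene past the threshold. DNA replication had 0 of 40 past in limma, 20 higher at an unadjusted p under 0.05 (6.64% of all genes tested) and 0 lower. In 31 both deleted arrays lay above both controls (27.3% of all genes tested) and in 0 below, and the median was 0.44 (0.53 without control 1 and 0.35 without control 2). Tyms, which makes thymidylate, read 8.23 and 8.26 in controls and 9.36 and 9.30 in deleted cells (change 1.09, SE 0.18, adjusted p = 0.0824). Rpa1, of the single-strand binding complex, read 7.74 and 7.73 against 8.41 and 8.42 (change 0.68, adjusted p = 0.151). Replicates were close in both genes. Ccne2 read 0.79 and Cdc6 0.70 (adjusted p = 0.16 and 0.234). Mitosis genes had 0 of 31 past in limma and 6 higher at an unadjusted p under 0.05 (6.64% of all genes tested). In 24 both deleted arrays lay above both controls (27.3% of all genes tested). Their median was 0.29, with Prc1 at 0.52 and Cdk1, listed as Cdc2a, at 0.57 (adjusted p = 0.226 and 0.257).

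Chaperones and the unfolded protein response had Clgn risen as 1 of 33, 15 higher and 1 lower at an unadjusted p under 0.05 (6.64% and 5.2% of all genes tested), and a median of 0.41. The disulphide isomerases Pdia6 (8.81 and 8.64 against 9.56 and 9.58) and Pdia4 (8.50 and 8.41 against 9.11 and 9.23) had changes of 0.85 and 0.72 (adjusted p = 0.111 and 0.136). Hyou1 read 0.91 (adjusted p = 0.164). Targets of Atf4, the factor that answers a lack of amino acids, had 0 of 28 past in limma, 14 higher and 0 lower at an unadjusted p under 0.05 (6.64% and 5.2% of all genes tested), and a median of 0.41. Asns, which makes asparagine, read 4.98 and 4.84 against 6.19 and 6.24 (change 1.30, SE 0.24, adjusted p = 0.111). Phgdh, the first enzyme of serine synthesis, read 6.93 and 6.51 against 8.15 and 7.63 (change 1.18, adjusted p = 0.119). Shmt2 read 1.04 and Aldh18a1 0.86 (adjusted p = 0.151 and 0.16). In all 4 of these genes both deleted arrays lay above both controls.

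Markers of other blood cells differed between arrays and in direction. Neutrophil granule genes, 22 of 22 tested, had 0 past in limma (4 higher and 0 lower unadjusted, against 6.64% and 5.2% of all genes tested). In 14 both deleted arrays lay below both controls (17.6% of all genes tested) and in 6 above (27.3%). Their median was -0.54, or 1.28 with the myeloid covariate, which includes these genes. Their lowest p values belonged to genes that read higher. Ms4a3 read 5.69 and 7.20 in controls and 8.36 and 8.25 in deleted cells (change 1.86, adjusted p = 0.185). Ela2, neutrophil elastase, read 7.78 and 9.52 against 10.75 and 10.56 (change 2.01, adjusted p = 0.2), and Prtn3 1.88 (adjusted p = 0.323). These 3 are genes of promyelocytes, and control 1 was the lowest array in each. Mast cell and basophil markers had 0 of 13 past (7 lower and 0 higher unadjusted, against 5.2% and 6.64% of all genes tested). Their median was -0.78, or -0.48 without control 2. Mcpt8, a basophil protease, read 6.60 and 7.32 against 5.15 and 4.71 (change -2.03, SE 0.31, adjusted p = 0.0715), and Prss34 7.88 and 9.22 against 6.53 and 6.15 (change -2.21, adjusted p = 0.111). Of 17 such markers 4 were dim in all 4 arrays. Among monocyte markers Cybb, a subunit of the phagocyte oxidase, had the lowest p and close controls, with 9.94 and 10.15 against 8.59 and 8.34 (change -1.58, SE 0.31, adjusted p = 0.127), and Fcgr1 read 8.93 and 6.83 against 5.44 and 5.42. The part of these cells in the changes of other genes was not tested beyond the values given.

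The same genes were then read in the culture arrays, which share no control with the marrow arrays, though the model pools their spread. Of the 21 marrow genes 20 read in the same direction in culture, with the culture arrays apart in the same way in 20. Over all genes tested the culture arrays lay apart upward in 22.4% and downward in 21.8%. In culture 232 genes passed (1.45% of those tested). The 2 sets shared 11 genes, all 11 in the same direction, which is 52.4% of the marrow set and 4.74% of the culture set. Cd55 fell by 3.82 in culture (SE 0.17, adjusted p = 0.000663), Rgs2 fell by 1.63 (SE 0.14) and Lalba rose by 3.37 (SE 0.32). Bank1, Akap5, Fads2, Cd74, H2-Aa, Arhgap17, Gm6545 and Aim1 were the other 8. Gm5431 was the exception in direction, with 5.50 and 5.61 in culture controls and 5.56 and 5.59 in deleted cultured cells. Its marrow and culture changes differed by -1.39 (SE 0.19, unadjusted p = 0.000115, limma adjusted p = 0.309).

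The change was larger in marrow than in culture for 18 of the 21 genes, a set chosen on the marrow values. The difference of the effects was tested for every gene. It passed in limma for 0 of 16050 genes (1216 at an unadjusted p under 0.05) and for 0 of these 21 (14 unadjusted), with adjusted p from 0.309 to 0.989. Cd74, which read -3.23 in marrow and -1.65 in culture, had an adjusted p of 0.404, and Scd1, at -3.95 and -1.06, one of 0.455. Across all genes tested the 2 sets of changes had a Pearson r of 0.258 and a Spearman correlation of 0.265. Genes are not independent replicates, so this is a description.

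**Figure D5:**
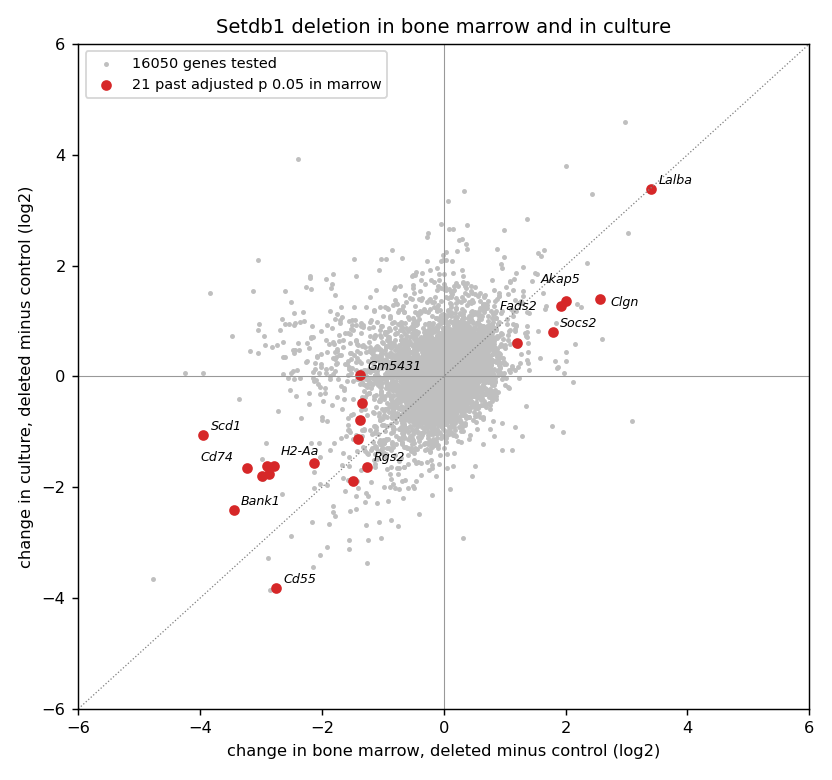
Log2 change with Setdb1 deletion in bone marrow (x axis) and in culture (y axis) for 16050 genes in grey and the 21 genes past adjusted p 0.05 in marrow in red, with a dotted line of equal change. Of the red points 20 lie in the quadrants of equal direction, and Gm5431 lies at a culture change of 0.02.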

How the data were processed

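Per the submitters' processing notes, Affymetrix Expression Console 1.2.0.20 with RMA gave the deposited log2 values. The genome build is not given in the sources used here. The table held 241576 probesets in 8 columns. Probesets with 1 gene symbol (212097) were combined per gene by median polish, those with several (4475) or none (25004) were left out, and symbols were taken from GEO's platform annotation. Of 20416 genes 16050 lay above the 25th percentile of gene values (4.03) in at least 2 arrays and were tested. One model with 4 group means was fitted with limma 3.58.1 in R 4.3.3 (4 residual and 3.53 prior degrees of freedom), with two-sided p-values adjusted by Benjamini and Hochberg's method across all tested genes. Changes are log2 differences, deleted minus control, with the moderated standard error (SE). The model was tested on simulated data. No set test was run: lists are described by counts and medians.

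The genes and lists were chosen with earlier results of these data known. The genes named are Setdb1, every gene past 0.05 in marrow, the 10 with the next lowest p, and up to 4 members per list with the lowest p whose arrays lie apart. Others are said to be chosen after their values were seen. Of 835 listed symbols 791 were found on the array, some through RefSeq synonyms. RefSeq (GRCm38.p6) gave promoters, synonyms and gene order. Whether the 2 samples of each group are separate animals is not stated in the labels. The p-values therefore measure only how these samples vary, possibly for technical reasons, and the small number of arrays limits the precision. Sample numbers were not treated as pairs in the main model. The correlation of same-numbered deviations was 0.0547 in marrow and 0.337 in culture. In culture the neutrophil granule markers had means of 4.56 (control) and 5.15 (deleted) in samples numbered 1. In samples numbered 2 they were 7.30 and 7.80. Such differences between culture samples enter the spread that the marrow p-values use.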

Additional observations from a re-analysis of the deposited data

Results flagged for a closer look

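For 10 of the 140 genes chosen by the naming rule both deleted arrays lay on one side of the controls in marrow and on the other side in culture. The limma test of the difference (marrow effect minus culture effect) passed for none of them after adjustment (adjusted p from 0.309 to 0.685). The rule picks list members whose marrow arrays lie apart. Over all genes tested the culture arrays lay apart upward in 22.4% and downward in 21.8%. The share of all genes with opposite directions was not computed, so the count of 10 is only a description. Bfsp2 read 1.35 in marrow and -0.53 in culture, a difference of 1.88 (SE 0.26). Atf3, a stress-induced factor, read -0.59 and 0.57, a difference of -1.15 (SE 0.26). The monocyte marker Clec4a1 read -3.03 and 0.95, a difference of -3.98 (SE 1.06). The mast cell protease Cpa3 read -1.12 and 0.16, a difference of -1.28 (SE 0.31). Its culture values (3.28 and 3.53 in controls, 3.54 and 3.59 in deleted cells) all lay under the value for dim genes. So did its deleted marrow arrays (3.76 and 3.14). The difference for Klrk1 was -1.11. Its culture values lay near the value for dim genes (3.68 and 3.95 in controls, 3.95 and 4.18 in deleted cells). That for Rora, under the value for dim genes in all 4 marrow arrays, was -0.58. The other differences were -0.93 for Nfatc2, 0.84 for Fcnb, -0.44 for Itga2b and -0.40 for Cd8a.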

How the results depend on the processing

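Against 6 rises and 15 falls in marrow, limma gave 0 and 0 with only the 4 bone marrow arrays in the fit (1100 higher and 783 lower at an unadjusted p under 0.05). It gave 14 rises with the mean of probesets, 12 rises and 25 falls with a trended and robust variance, 13 and 36 with array weights, and 3 and 6 with the mean of myeloid markers as a covariate. With the replicate block the counts were 4 rises and 8 falls, and 8 of the 21 genes still passed. Leaving out 1 array at a time gave 0 to 99 rises and 0 to 471 falls, and 0 to 461 genes for the difference between marrow and culture effects. The cause was not tested. Of the named genes Dlk1 changed sign, from 0.16 to -0.0276, with the mean of probesets. Other filters, quantile normalisation and centring kept both marrow counts within 1.5 times. With 2 arrays a group, genes that changed by little could not be called, and values near 4.03 have no firm size.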

Other observations

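Some markers of lymphoid and stromal cells read higher in deleted marrow cells without passing. Thy1, found on T cells and early lymphoid cells, read 6.25 and 6.55 in controls and 8.97 and 8.68 in deleted cells (change 2.42, SE 0.39, limma adjusted p = 0.0815), and Prkcq, a T-cell kinase, read 0.99 (adjusted p = 0.157). The T-cell list as a whole had a median of -0.02 over 16 genes. Nkg7, a granule protein of killer cells, read 6.18 and 7.46 against 8.51 and 9.08 (change 1.98, SE 0.48, adjusted p = 0.185), where the list of 8 NK and innate lymphoid genes had a median of -0.09. The collagen genes Col1a2 (6.02 and 6.59 against 7.44 and 7.90) and Col1a1 (6.57 and 7.22 against 7.90 and 8.24) had changes of 1.36 and 1.17 (adjusted p = 0.111 and 0.136). In the genes named here both deleted arrays lay above both controls. The list of 14 stromal and endothelial genes had a median of 0.08 and ran from -2.82 to 1.36. In 6 of its genes both deleted arrays lay above both controls (27.3% of all genes tested), and in 2 below (17.6%).

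The neighbours of the changed genes in the RefSeq order of tested genes were read as well, 3 on each side. For 19 of the 21 genes that could be placed these were 108 other genes, of which 0 passed in limma and 12 (11.1%) had an unadjusted p under 0.05, against 11.8% of all genes tested. Beside Rgs2 lies Rgs1, which read -1.74 (SE 0.73, adjusted p = 0.412), and beside Tlr1 lies Tlr6, which read -0.59 (SE 0.20, adjusted p = 0.332).

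Other lists gave small medians. BCL2 family genes had a median of 0.01 over 15 genes, with Bcl2l11, which promotes apoptosis, at 6.57 and 6.59 in controls and 7.83 and 7.49 in deleted cells (change 1.09, SE 0.33, adjusted p = 0.282). Targets of p53 had a median of -0.03 over 25 genes. The immediate early and heat shock list gave a median of -0.24 over 26, with Nr4a1 at 6.48 and 6.23 against 5.45 and 5.58 (change -0.84, adjusted p = 0.111). Plasma cell markers had a median of -0.05, with Mzb1, listed as 2010001M09Rik, at 1.07 (adjusted p = 0.136). Dendritic (-0.11), erythroid (-0.08), megakaryocyte (-0.02) and stromal and endothelial markers (0.08) had medians near that of all genes. Without control 2 the sign of the T-cell, p53, plasma cell and megakaryocyte medians turned, to 0.07, 0.03, 0.10 and 0.09. Among the 18 alternatives the sign of these medians turned in 7, 4, 2 and 5, and that of the BCL2 family median in 3. Without control 1 the T-cell median was 0.05.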
